A study of Mus musculus with 6 samples.

Results

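The genes described here encode 5 receptors that control gastric acid secretion: Hrh2, Cckbr, Chrm3, Sstr2 and Ptger3. They were taken by gene symbol from a table of 21526 gene symbols, and all 5 were found and passed the filter on low counts that left 14600 genes to test. RNA came from uncultured epithelial cells of the mouse gastric corpus, released with EDTA, in 3 libraries of Yap-activated gastric cancer and 3 of normal stomach (Normal). Yap-activated mice carried CluCreERT2, R26rtTA and HA-Yap+, that is, tamoxifen-inducible Cre at the Clu gene, the doxycycline-dependent activator rtTA at Rosa26 and a tagged Yap transgene, while Normal mice were wild type (WT). Mice of both groups had 2 mg tamoxifen on each of 5 days, and food with doxycycline over the last 14 days. Because Normal mice lacked all of these alleles, any effect of CreERT2 or rtTA and that of Yap cannot be told apart. The sources used here do not give age, sex or whether animals were pooled for a library.

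Acid is made by parietal cells of the corpus glands. Histamine from enterochromaffin-like (ECL) cells raises cyclic AMP in the parietal cell through the H2 receptor, acetylcholine from nerves raises calcium through the M3 receptor, and gastrin acts through the CCK-B receptor on ECL cells and parietal cells. Somatostatin from D cells, through its receptor Sstr2, and prostaglandin E2, through the EP3 receptor, restrain secretion by lowering cyclic AMP. Somatostatin is also among the signals that restrain ECL cells.

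Transcripts of all 5 receptors were lower in Yap-activated tissue, the histamine receptor by the widest margin. Hrh2 averaged 0.783 CPM in Yap-activated libraries (range 0.215 to 1.15) and 70.7 CPM in Normal libraries (range 63.3 to 82.0, n = 3 each), 90.2-fold less. The other 4 receptors were lower by 11.8-fold (Sstr2) to 19.9-fold (Cckbr). All 5 passed edgeR's quasi-likelihood test in the lower direction, a call made for 29.7% of all genes tested. For all 5, every Yap-activated library lay below every Normal library, which held for 34.4% of all genes. Log2 fold changes were below -2 for all 5 (6.81% of all genes were called lower at that size), below -4 for Hrh2, Cckbr and Chrm3 (1.84%) and below -6 for Hrh2 (0.63%). CPM is a count scaled to library size after TMM adjustment for differences in composition, and the threshold was an adjusted p of 0.05 (Benjamini-Hochberg over the 14600 genes).

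The promoters of these genes, all 5 lower in Yap-activated tissue, are described first. RefSeq start sites on GRCm38.p6 were found for all 5 (for Hrh2 a pair of close sites, the first of which is shown), and the 250 bases before each were searched on both strands for GGAATG (the core of the site bound by TEAD factors, the DNA-binding partners of Yap), AAGGTCA (a site of estrogen-related receptors, which parietal cells express) and TGACGTCA (the cyclic AMP response element). These motifs were present in 12.6%, 4.08% and 1.55% of all 32851 such windows, in that order. The receptor windows held none of the first 2 motifs, and 1 match to the third, 58 bases before the Sstr2 start site. A match is a description of letters and not evidence of binding, and its absence concerns these windows alone. The Hrh2 window, of the receptor with the largest difference, is at chr13:54191883-54192132 (plus strand) and the Sstr2 window, with its match in capitals, is at chr11:113619077-113619326 (plus strand).
Hrh2: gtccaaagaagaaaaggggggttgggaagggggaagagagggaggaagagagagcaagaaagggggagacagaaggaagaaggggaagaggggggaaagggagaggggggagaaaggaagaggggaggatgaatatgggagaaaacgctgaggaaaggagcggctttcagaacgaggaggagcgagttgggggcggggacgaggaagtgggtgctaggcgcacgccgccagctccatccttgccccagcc
Sstr2: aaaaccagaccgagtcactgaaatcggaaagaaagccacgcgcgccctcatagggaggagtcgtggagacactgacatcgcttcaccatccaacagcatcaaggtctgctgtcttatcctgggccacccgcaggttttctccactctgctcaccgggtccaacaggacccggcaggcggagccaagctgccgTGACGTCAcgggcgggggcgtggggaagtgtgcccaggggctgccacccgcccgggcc
The Hrh2 window has a G plus C content of 60.0%, and the Sstr2 window has 63.6%. Those of Ptger3, Chrm3 and Cckbr have 62.0%, 61.2% and 53.6%, against a median of 52.4% over all windows.

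Library totals ran from 25580734 to 44295619 counts in the Yap-activated group and from 36815754 to 48440033 in Normal. As a check of the labels, Yap1 had a log2 fold change of 4.32 (SE 0.32), with the Yap-activated libraries at 3084, 1468 and 1651 CPM and the Normal ones at 100.3, 104.5 and 106 CPM. Of all genes tested, 59.5% were called (29.8% higher and 29.7% lower), and the median log2 fold change was 0.01. With library totals alone as the scaling, the median was 0.50, and risers made up 76.6% of calls (50.0% with TMM). The receptors' log2 fold changes were then less negative by about that shift, from -5.99 for Hrh2 to -3.03 for Sstr2. The labels do not say that the libraries came from separate mice, so the spread behind the p-values may be partly technical. Intervals on single values below cover counting error only.

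The receptors that stimulate secretion come first. Hrh2 encodes the histamine H2 receptor, the target of the H2-blocking drugs, and lies on the plus strand of chromosome 13 from 54192129 to 54236180 (GRCm38). It had 0.983, 0.215 and 1.15 CPM in the Yap-activated libraries (29, 9 and 62 reads), against 63.3, 66.7 and 82.0 CPM in the Normal ones (2173, 2808 and 2596 reads). The Normal libraries were close together, whereas Yap-activated replicate 2 was 5.37-fold below replicate 3 of its group. The 95% Poisson interval of replicate 2, 0.0981 to 0.407 CPM, did not reach that of replicate 3, from 0.884 to 1.48 CPM. The edgeR quasi-likelihood test gave a log2 fold change of -6.48 with an SE of 0.47 and an adjusted p of 4.25e-05, and placed Hrh2 at rank 75 from the lowest of the 14600 genes. An antisense gene, Gm16578, overlaps 145 bases of Hrh2 exons, and since the strand setting of the counting is not given, its reads could be part of the Hrh2 count.

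Cckbr encodes the gastrin receptor, also called CCK-B or CCK2, and lies on the plus strand of chromosome 7 from 105425731 to 105470898. Its values were 0.305, 0.405 and 0.260 CPM in Yap-activated libraries, from 9, 17 and 14 reads, against 5.62, 7.43 and 6.23 CPM in Normal libraries, from 193, 313 and 197 reads. The counting intervals of the 3 Yap-activated libraries overlapped one another, so their order cannot be read at this depth. The edgeR quasi-likelihood test gave a log2 fold change of -4.30 with an SE of 0.29 and an adjusted p of 1.50e-05.

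Chrm3, the gene of the muscarinic M3 receptor, maps to chromosome 13, minus strand, between 9875486 and 10360847. It had 1.97, 1.29 and 2.14 CPM in Yap-activated libraries, against 26.9, 30.5 and 44.2 CPM in Normal libraries. Normal replicate 3 was the highest Normal library for Chrm3, as it was for Hrh2, Sstr2 and Ptger3. The edgeR quasi-likelihood test gave a log2 fold change of -4.23 with an SE of 0.27 and an adjusted p of 1.22e-05, a fold change close to that of Cckbr.

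**Figure D1:**
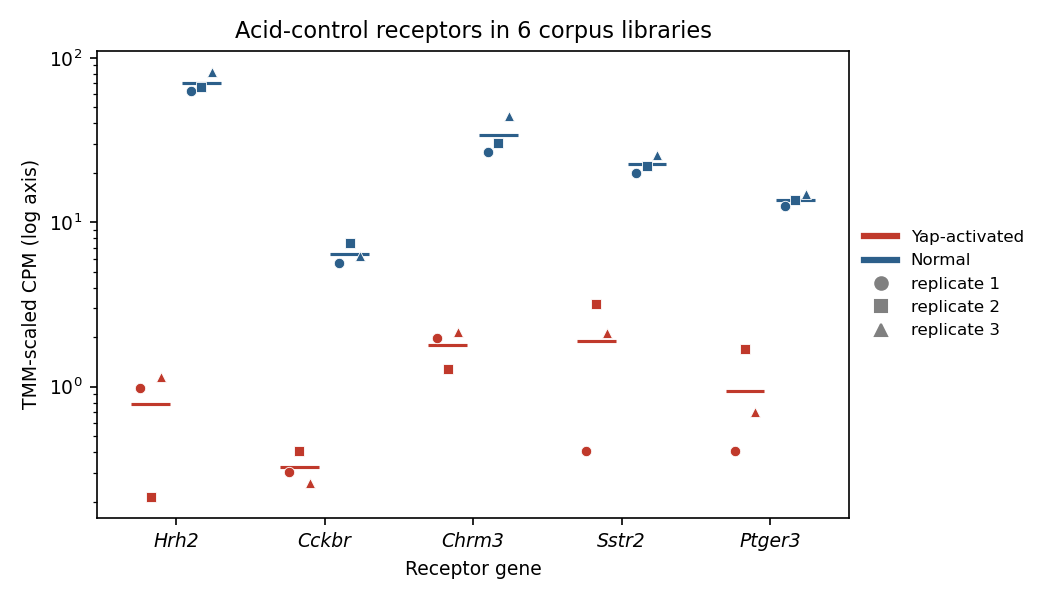
TMM-scaled CPM (log axis) of the 5 receptor genes in each library, Yap-activated left and Normal right of each pair; marks are replicates 1 to 3 and lines are group means. All Yap-activated points lie below all Normal points of the same gene, and Hrh2, highest in Normal libraries (63.3 to 82.0 CPM), is among the lowest in Yap-activated ones (0.215 to 1.15 CPM).

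The inhibitory receptors were lower as well. Sstr2, the somatostatin receptor through which octreotide acts, lies on the plus strand of chromosome 11 from 113619342 to 113626028. It had 0.407, 3.20 and 2.12 CPM in Yap-activated libraries, from 12, 134 and 114 reads, against 19.9, 22.0 and 25.6 CPM in Normal libraries. Yap-activated replicate 1 was 7.86-fold below replicate 2, the widest spread of any receptor within a group, while the Normal libraries spanned 1.28-fold. The edgeR quasi-likelihood test gave a log2 fold change of -3.53 with an SE of 0.59 and an adjusted p of 0.00199.

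Ptger3, which encodes the EP3 receptor for prostaglandin E2, lies on the plus strand of chromosome 3 from 157566892 to 157645888. Its Yap-activated libraries had 0.407, 1.69 and 0.706 CPM, from 12, 71 and 38 reads, and its Normal libraries 12.5, 13.6 and 15.0 CPM. The order of the Yap-activated libraries was that of Sstr2, with replicate 1 lowest and replicate 2 highest, whereas replicate 2 was the lowest for Hrh2 and Chrm3. Counting intervals overlapped, however, for Ptger3 replicates 1 (0.210 to 0.710 CPM) and 3 (0.500 to 0.970 CPM). They also overlapped for Chrm3 replicates 2 (0.967 to 1.68 CPM) and 1 (1.49 to 2.54 CPM). The lowest library of these 2 genes therefore cannot be read at this depth. The edgeR quasi-likelihood test gave a log2 fold change of -3.85 with an SE of 0.46 and an adjusted p of 3.08e-04. Without Yap-activated replicate 2 it was -4.56.

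The spread within groups therefore differed in size between receptors and between groups. In Yap-activated tissue the coefficient of variation was 73.8% for Sstr2, 72.0% for Ptger3 and 63.8% for Hrh2, but 23.0% for Cckbr and 25.01% for Chrm3. In Normal tissue it was 8.90% for Ptger3, 12.7% for Sstr2, 14.2% for Hrh2, 14.4% for Cckbr and 27.0% for Chrm3. No test of these spreads was made, with n = 3 in each group. Yap-activated values rest on 9 to 134 reads per receptor and library, against 193 to 2808 in Normal. The part of counting error in the spreads was not tested.

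Levels of different genes were compared per kilobase of exon, with all annotated exons of a gene merged (GENCODE mouse release 21). In Normal libraries Hrh2 was highest at 11.9 ± 1.68 CPM per kb, followed by Sstr2 at 10.5 ± 1.34, Chrm3 at 5.42 ± 1.46, Ptger3 at 2.41 ± 0.214 and Cckbr at 2.25 ± 0.323 CPM per kb (SD, n = 3 each). The ranges of Hrh2 and Sstr2 overlapped, as did those of Ptger3 and Cckbr, while Chrm3 stood apart from both pairs. In Yap-activated libraries Sstr2 averaged 0.890 ± 0.656, Chrm3 0.287 ± 0.0719, Ptger3 0.165 ± 0.118, Hrh2 0.132 ± 0.0842 and Cckbr 0.113 ± 0.0260 CPM per kb (SD, n = 3 each). There the ranges of all neighbours in the order overlapped. Farther apart in the order, the range of Chrm3 (0.206 to 0.342 CPM per kb) lay above those of Hrh2 (0.0362 to 0.194) and Cckbr (0.0910 to 0.142), and that of Sstr2 (0.190 to 1.49) lay above that of Cckbr. With the longest transcript as length the order was the same in both groups, but in Normal libraries the ranges of Hrh2 (15.0 to 19.5 CPM per kb) and Sstr2 (9.29 to 11.9 CPM per kb) did not overlap. With that length Chrm3 (6.20 to 10.2 CPM per kb) overlapped Sstr2, and Ptger3 (3.50 to 4.18) no longer overlapped Cckbr (2.18 to 2.89).

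The makeup of the receptor transcripts was steady in Normal tissue and varied in Yap-activated tissue, where fewer reads stood behind each value. The part of counting error in this variation was not tested. Hrh2 made up 19.5%, 1.66% and 11.2% of the summed CPM per kb of the 5 receptors in Yap-activated libraries, against 37.5%, 35.9% and 36.7% in Normal libraries. Sstr2 made up 22.4%, 68.6% and 56.8% in Yap-activated libraries, against 32.7%, 32.7% and 31.7% in Normal ones. The Hrh2 share was thus lower in every Yap-activated library, while the Sstr2 share lay on both sides of the Normal range. The log2 ratio of Hrh2 to each other receptor was lower in Yap-activated tissue, by 2.39 against Chrm3 to 2.69 against Sstr2, without overlap between groups. For the 6 pairs that do not contain Hrh2 the groups overlapped, with differences from -0.30 to 0.21. These pair ratios are given as a description and were not tested. How often ratios of other gene pairs separate the groups was not computed. In CPM, single genes lay apart with Yap-activated lower for 34.4% and higher for 33.2% of all genes tested.

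**Figure D2:**
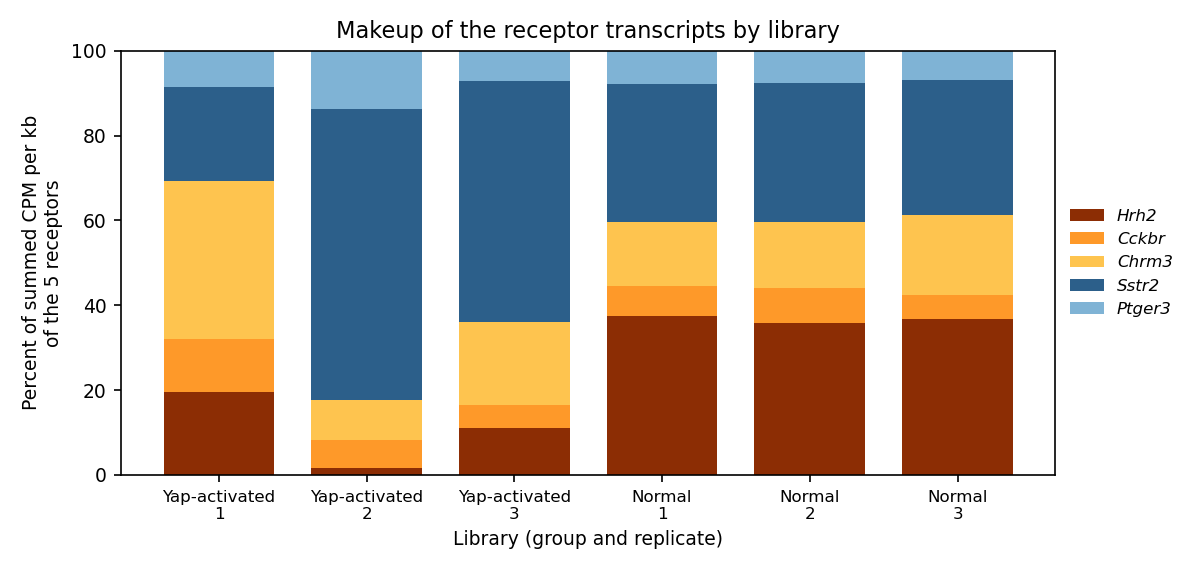
Share of each receptor in the summed CPM per kb of the 5 receptors (percent, stacked to 100) in the 3 Yap-activated and the 3 Normal libraries. The Hrh2 share is 1.66% to 19.5% in Yap-activated and 35.9% to 37.5% in Normal libraries, and Sstr2 is the largest part of the bar in Yap-activated replicates 2 and 3 (68.6% and 56.8%).

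Markers of the main cell types of the corpus glands also differed between the groups. All 6 parietal markers measured (Atp4a, Atp4b and Kcne2, and Slc26a7, Aqp4 and Esrrg, named after their values were seen) fell, with a summed level of 31.3 to 37.5 CPM in Yap-activated and 21707 to 29698 CPM in Normal libraries, and none of them was at 0 in any library. In such bulk RNA, fewer cells of a type and less RNA per cell cannot be told apart. Of 6 tested ECL cell markers 5 fell (Slc18a2, Chga, Chgb, Syp and Tph1). Hdc, the enzyme that makes histamine, did not pass (log2 fold change -1.20, adjusted p = 0.107, edgeR quasi-likelihood test). The summed level of the list was 22.1 to 37.4 CPM in Yap-activated and 419 to 526 CPM in Normal libraries. Chga alone averaged 7.88 CPM in Yap-activated and 365 CPM in Normal libraries, so it made up most of the Normal sum. All 5 chief cell markers fell too, at 166 to 202 CPM against 94547 to 151182 CPM in Normal. Of all genes tested 29.7% were called lower. The part of these cell types in the receptors' difference was not tested.

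To set each receptor against the acid-making machinery of the parietal cell, its reads were counted per 1000 reads of Atp4a and Atp4b, the subunits of the proton pump. Hrh2 had 33.8, 8.84 and 35.2 reads per 1000 pump reads in Yap-activated libraries, against 3.02, 3.02 and 2.88 in Normal libraries. Chrm3 had 67.6, 53.0 and 65.2 per 1000 pump reads in Yap-activated libraries, against 1.28, 1.38 and 1.55 in Normal libraries. Receptor transcripts were thus more abundant relative to the pump in Yap-activated tissue, although lower in CPM, since the pump was lower still. Its log2 fold changes were -9.65 for Atp4a and -9.86 for Atp4b. This gain is not particular to the receptors, as 14596 of 14598 other genes also lay higher against the pump in every Yap-activated library (log2 scale). Sstr2 averaged 70.1 ± 59.0 per 1000 pump reads in Yap-activated and 0.947 ± 0.0479 in Normal libraries, Ptger3 35.1 ± 30.2 and 0.579 ± 0.0480, and Cckbr 11.7 ± 4.50 and 0.274 ± 0.0591 (SD, n = 3 each, Yap-activated first in each pair). The pump itself gave 858 to 1763 reads per Yap-activated library and 718781 to 931390 per Normal library.

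On the log2(CPM + 0.1) scale the ratio of receptor to pump was higher in Yap-activated tissue by 3.19 for Hrh2 and by 5.58 (Chrm3) to 5.88 (Sstr2) for the other 4 receptors. For each receptor all Yap-activated libraries lay above all Normal libraries (2-sided exact permutation p = 0.1 for each, and 0.1 after adjustment over the 5 receptors), and 3 against 3 cannot give a smaller p. The choice of comparator fixes this direction: Atp4b and Atp4a had the lowest and next lowest log2 fold changes of all genes tested, and 14596 of the 14598 other genes (100%) separated in the same way. The median gain over those genes was 9.74 (quartiles 9.11 and 10.4), so the receptors gained less on the pump than most genes did, and Hrh2 least of the 5. With the other parietal markers measured (Kcne2, Slc26a7, Aqp4 and Esrrg) in place of the pump, the difference was 1.06 for Hrh2 (2-sided exact permutation p = 0.4) and 3.44 (Chrm3) to 3.74 (Sstr2) for the others (2-sided exact permutation p = 0.1 for each). Against those markers 99.7% of all other genes lay higher in every Yap-activated library, with a median of 7.60. Receptor transcripts of cells other than parietal cells enter these ratios, and their part was not tested.

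**Figure D3:**
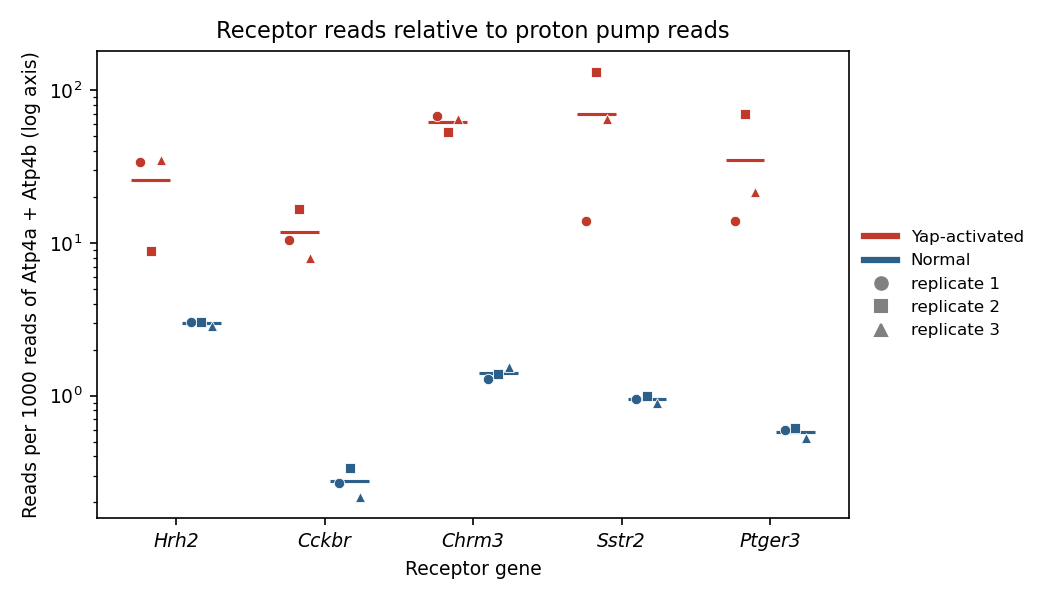
Reads of each receptor per 1000 reads of Atp4a and Atp4b (log axis) in each library, Yap-activated left and Normal right of each pair; marks are replicates and lines are group means. Every Yap-activated point lies above every Normal point of its gene, with the smallest gap for Hrh2; on the log2 scale 14596 of 14598 other genes also lay higher against the pump in every Yap-activated library.

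Other receptors for the same ligands did not share a direction. Of 15 such genes 8 were tested, of which 3 fell, 2 rose and 3 did not pass (59.5% of all genes were called), with a median log2 fold change of 0.32 against 0.01 over all genes. Cckar, the receptor for cholecystokinin that gastrin activates only weakly, had 0.237, 0.286 and 0.205 CPM in Yap-activated libraries, against 123, 150 and 182 CPM in Normal ones. Its log2 fold change of -9.28 (SE 0.24, adjusted p = 2.86e-07, edgeR quasi-likelihood test) was larger in size than those of Hrh2 and Cckbr. Chrm1, the muscarinic M1 receptor gene, had a log2 fold change of -4.04 (SE 0.28), near that of Chrm3.

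Ptger4, which encodes the EP4 receptor that raises cyclic AMP, rose to 43.3, 70.2 and 52.2 CPM in Yap-activated libraries, against 11.6, 12.5 and 10.6 CPM in Normal libraries (log2 fold change 2.25, SE 0.18). Hrh1, the H1 receptor gene, picked after its values were seen, had 3.86, 4.29 and 8.16 CPM in Yap-activated libraries, against 0.175, 0.142 and 0.221 CPM in Normal libraries (log2 fold change 4.92, SE 0.43). So Hrh1 rose where Hrh2 fell, and Ptger4 rose where Ptger3 fell, with no overlap between the groups in any of the 4 genes. Groups lay apart with Yap-activated higher for 33.2% of all genes and with Yap-activated lower for 34.4%. The difference between the paired receptors was not tested. The remaining 7 genes of the list, among them Sstr5, Hrh3 and Hrh4, had too few reads to test.

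**Figure D4:**
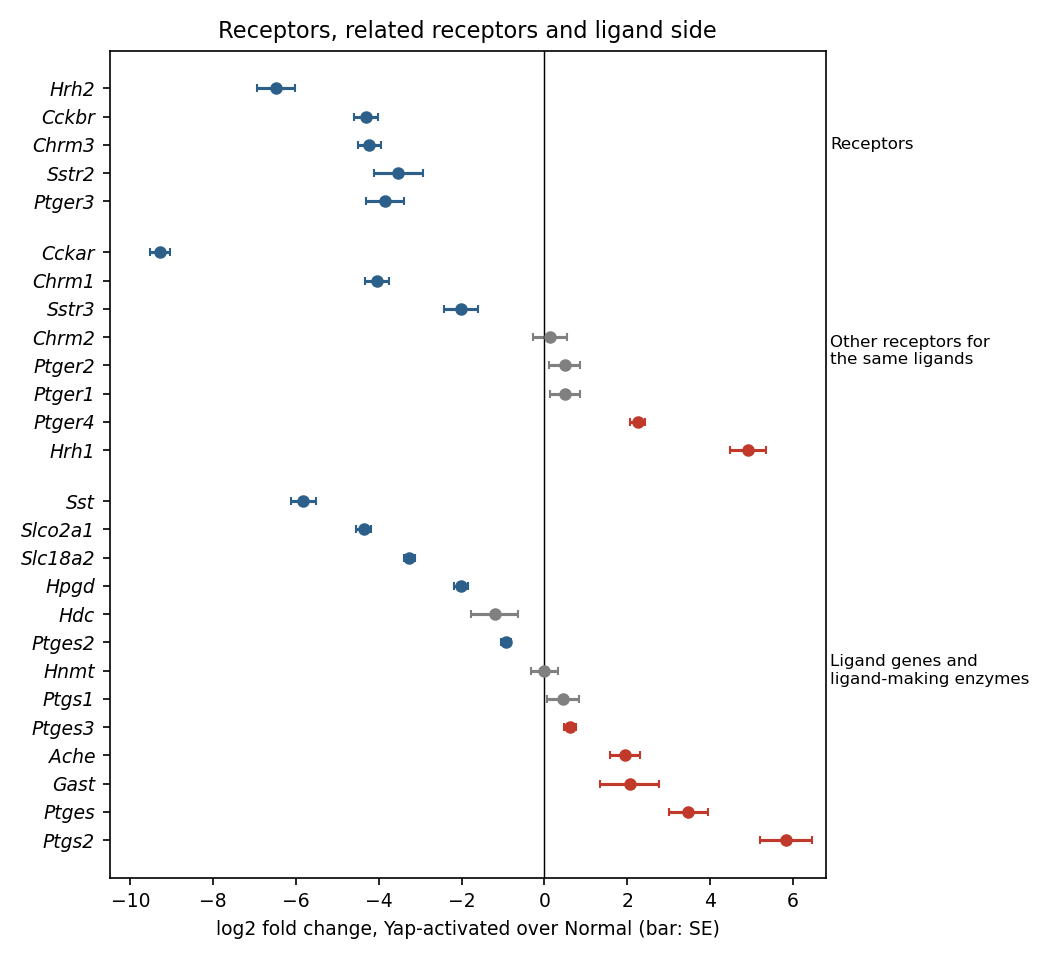
Log2 fold changes (Yap-activated over Normal, bars are SE) of the 5 receptors, of the 8 tested other receptors for the same ligands and of the 13 tested genes of the ligand side; blue fell, red rose and grey did not pass an adjusted p of 0.05. The receptors lie from -6.48 to -3.53, while the lower blocks hold genes on both sides of 0.

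On the ligand side 13 of 18 genes were tested, of which 5 fell, 5 rose and 3 did not pass, with a median log2 fold change of 0.00. Calls thus made up 76.9% of the tested list, against 59.5% of all genes. Sst, the somatostatin gene, had 2.17, 3.03 and 3.72 CPM in Yap-activated libraries, against 119, 191 and 201 CPM in Normal libraries (log2 fold change -5.82, SE 0.30). Its fall was in the same direction as that of its receptor Sstr2. Hdc, the enzyme that makes histamine, had 19.4, 3.34 and 16.3 CPM in Yap-activated libraries, against 25.1, 33.0 and 31.3 CPM in Normal libraries, and did not pass (log2 fold change -1.20, adjusted p = 0.107, edgeR quasi-likelihood test). Without Yap-activated replicate 2, the library that was also lowest for Hrh2, Hdc was at -0.75 and passed (adjusted p = 0.00617), as it did with limma voom (-1.57, adjusted p = 0.036). Slc18a2, which loads histamine into ECL cell vesicles, was lower by a log2 fold change of -3.26 (SE 0.14).

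Gast, the gastrin gene of antral G cells, had 16.1, 32.3 and 22.7 CPM in Yap-activated libraries, against 0.932, 6.77 and 9.32 CPM in Normal libraries. Its log2 fold change of 2.06 (adjusted p = 0.042, edgeR quasi-likelihood test) did not pass when Yap-activated replicate 2 (adjusted p = 0.113), Yap-activated replicate 3 (0.0784) or Normal replicate 2 (0.0947) was left out, nor with no filter on low counts (0.0852). Beside it Pdx1, a transcription factor of the antrum and duodenum, was at 3.30 on the log2 scale, with 33.8 ± 10.4 CPM in Yap-activated and 3.41 ± 0.858 CPM in Normal libraries (SD, n = 3 each). They belong to a list of 5 D and G cell markers, of which these 2 rose, Sst and Isl1, a transcription factor of endocrine cells, fell (Isl1 with a log2 fold change of -1.52), and Hhex did not pass. Chat, which makes acetylcholine, was too low to test, at no more than 0.0954 CPM in Yap-activated and 0.356 CPM in Normal libraries.

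Among prostaglandin genes, Ptgs2, the inducible cyclooxygenase, had 262, 68.7 and 89.7 CPM in Yap-activated libraries, against 3.29, 2.07 and 1.99 CPM in Normal ones (log2 fold change 5.84, SE 0.64, and 5.03 without Yap-activated replicate 1). Ptges, the inducible prostaglandin E synthase, had 19.2, 31.0 and 66.6 CPM in Yap-activated libraries, against 3.67, 3.49 and 3.32 CPM in Normal ones (log2 fold change 3.48, and 2.86 without Yap-activated replicate 3). Slco2a1, which carries prostaglandins into cells for breakdown, fell by 4.36 on the log2 scale, and Hpgd, the enzyme of that breakdown, by 2.02. Ptgs2 and Ptges thus rose, and Slco2a1, Hpgd and the EP3 receptor gene Ptger3 fell. Of the other prostaglandin E synthase genes, Ptges2 fell by 0.92 and Ptges3 rose by 0.61. Ptgs1, the constitutive cyclooxygenase, was at 0.46 (adjusted p = 0.336), and at -0.10 without Yap-activated replicate 3. Hpgd, Ptges2 and Ptges3 were picked after their values were seen.

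Of 17 other receptors described in the control of acid secretion or parietal cells 14 were tested, of which 7 fell, 2 rose and 5 did not pass, with a median log2 fold change of -1.28. Calls made up 64.3% of those tested, against 59.5% of all genes (29.7% lower). Glp1r, the receptor for glucagon-like peptide, fell by 4.09 on the log2 scale (SE 0.19), with 5.17 ± 1.20 CPM in Yap-activated and 87.4 ± 10.02 CPM in Normal libraries (SD, n = 3 each). Sctr, the secretin receptor gene, fell by 4.22 (SE 0.34). Il1r1, the receptor of interleukin-1, which inhibits acid secretion, rose by 1.44 (SE 0.16). The other riser was Adora2b, an adenosine receptor picked after its values were seen, at 1.60. Its call was lost without any single library other than Yap-activated replicate 2 (adjusted p from 0.0626 to 0.11), with the replicate block (0.0664) and with limma voom (0.0802).

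Downstream of the receptors, calls among G proteins were near the shares over all genes. Of 15 G protein genes 4 rose, 4 fell and 7 did not pass, with a median log2 fold change of 0.19. That is 53.3% called, against 59.5% of all genes tested (29.8% higher and 29.7% lower). Gnai2, an inhibitory subunit through which Sstr2 and EP3 act, rose by 1.03 on the log2 scale (SE 0.11), with 278 ± 17.6 CPM in Yap-activated and 136 ± 8.08 CPM in Normal libraries (SD, n = 3 each). Gna11, which couples M3 and CCK-B receptors to phospholipase C, fell by 0.88 (SE 0.12), and Gnaq, its close relative, named outside the rule after its values were seen, was at -0.02. Gnao1 fell by 1.24. Gnb1, the member with the highest level, rose by 0.37. It did not pass when Normal replicate 1 (adjusted p = 0.061, edgeR), Normal replicate 3 (0.0646) or Yap-activated replicate 2 (0.0558) was left out.

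Of 22 genes of the cyclic AMP arm, 10 fell, 5 rose and 7 did not pass, with a median log2 fold change of -0.35. Calls made up 68.2% of this list, against 59.5% of all genes (29.7% lower). Adcy6, an adenylyl cyclase and the member with the highest level, fell by 0.80 (SE 0.12), and Prkaca, the catalytic subunit of protein kinase A, by 0.77 (SE 0.10). With library totals alone as scaling, Adcy6 was at -0.30 (adjusted p = 0.0549) and Prkaca at -0.28 (adjusted p = 0.079), so neither passed. Akap1, a mitochondrial anchor of that kinase, fell by 1.26, and Pde4a, a phosphodiesterase that breaks down cyclic AMP, by 1.65.

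Of 22 tested genes of the calcium arm 6 fell, 3 rose and 13 did not pass, with a median log2 fold change of 0.04. Calls made up 40.9% of this list, against 59.5% of all genes. Itpr2, an inositol trisphosphate receptor of the endoplasmic reticulum, had 12.5, 7.63 and 12.8 CPM in Yap-activated libraries, against 99.8, 100 and 127 CPM in Normal libraries (log2 fold change -3.31, SE 0.22). Plcb4, a phospholipase C, fell by 2.64 (SE 0.14) and Stim1, a calcium sensor, by 1.40 (SE 0.13). Of 15 genes that damp signalling from such receptors 6 rose, 4 fell and 5 did not pass (66.7% called, against 59.5% of all genes). The risers were Arrb2, Rgs1, Rgs2, Rgs3, Rgs16 and Rgs19, and the fallers Arrb1, Grk3, Grk6 and Rgs5. Rgs16 was at 3.58, Rgs19 at 1.54 and Rgs3 at 1.21, while Grk2, a receptor kinase, was at 0.10.

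Of 20 acid secretion effectors, 14 fell, 2 rose and 4 did not pass, with a median log2 fold change of -2.44. Besides the pump subunits, Kcne2, a potassium channel subunit, was at -9.28 (SE 0.25) and Kcnj15, another potassium channel, at -7.64 (SE 0.22). The effectors are the list where falls were most frequent among those downstream of the receptors, at 14 of 20 genes against 29.7% of all genes tested. In this list, too, no test of the list was made.

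**Figure D5:**
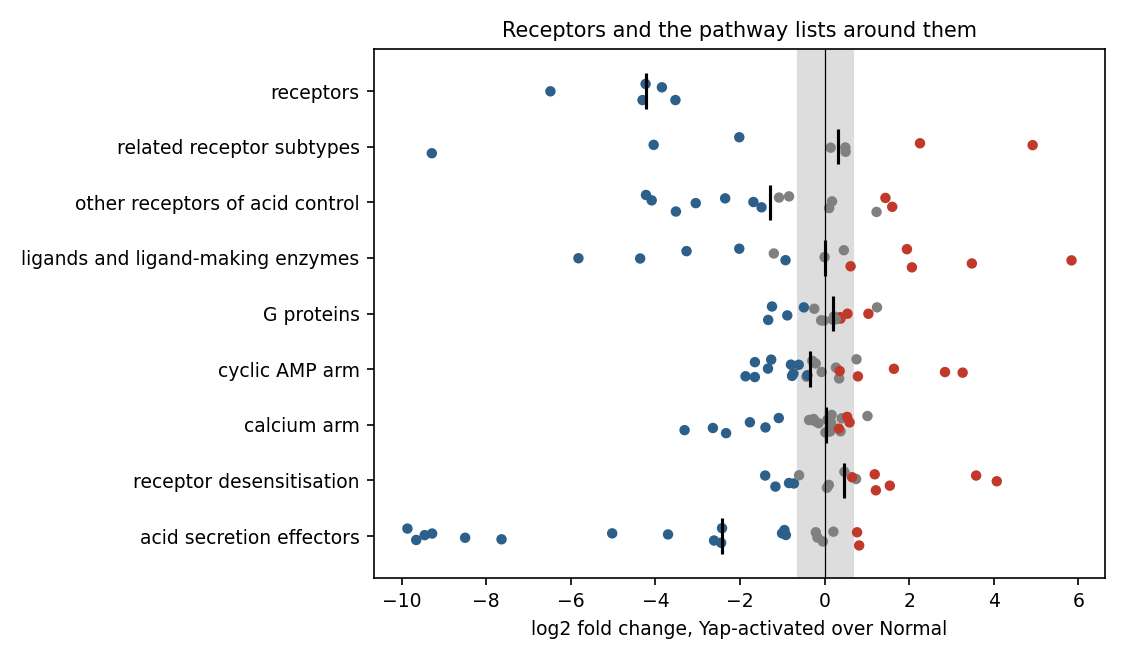
Log2 fold changes (Yap-activated over Normal) of the tested genes of each list, 1 dot a gene; blue fell, red rose and grey did not pass, black bars are list medians, and the grey band spans the quartiles of all 14600 genes (-0.62 to 0.66). The receptors and the acid secretion effectors have medians of -4.23 and -2.44, while the G protein and calcium lists lie around 0.

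The tested genes whose log2 values over the 6 libraries, each centred on its own mean, lay nearest to a receptor differed between receptors. Nearest to Hrh2 were Me3, at a Euclidean distance of 0.89, Ppp1r3a and Hecw2, both at 1.10. For Cckbr they were Aass (0.37), Chrm1 (0.42) and Ces1e (0.44), and for Chrm3 they were Slc2a4 and Gpm6a (0.36 each) and Ybx2 (0.44). For Sstr2 they were Derl3 (0.70), Abcc6 (0.96) and Agt (0.97), and for Ptger3 they were Ifi27l2b (0.56), Efcab1 (0.69) and Hs3st3b1 (0.71). Rank by rank, distances were larger for Hrh2 and Sstr2 than for the other 3 receptors. Still, Derl3 lay closer to Sstr2 (0.70) than Hs3st3b1 did to Ptger3 (0.71). With a pseudocount of 1 CPM in place of 0.1, 1 of 3 neighbours remained for Hrh2 (Hecw2), Chrm3 (Gpm6a) and Sstr2 (Derl3), and 0 of 3 for Cckbr and Ptger3, so the neighbours rest on the treatment of low values.

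Receptors of this kind are also found on cells other than parietal and ECL cells, and markers of such cells were measured beside them. The counts below stand beside 29.7% of all genes tested called lower and 29.8% called higher. Of 6 smooth muscle markers 3 fell, with a summed level of 106 to 246 CPM in Yap-activated and 205 to 324 CPM in Normal libraries. The calls of Acta2 and Myh11 were lost with library totals alone and without Normal replicate 3, which left 1 of 6. That of Myh11 was also lost with no filter and without Normal replicate 1 or 2 or Yap-activated replicate 1 or 2 (edgeR, adjusted p from 0.0511 to 0.0897). Of 7 tested neuron and glia markers 3 fell and 2 rose, at 19.9 to 22.0 CPM in Yap-activated and 11.9 to 14.9 CPM in Normal libraries, and the 3 falls were 1 without any single library other than Yap-activated replicate 1. Of 6 tested immune markers 3 rose, at 52.8 to 183 CPM in Yap-activated and 35.9 to 40.4 CPM in Normal libraries (5 rose without Yap-activated replicate 2). Csf1r, among these risers, had groups that overlapped. Its call was lost with limma voom (adjusted p = 0.0574) and with no filter (edgeR, 0.0585). It was also lost without any single Normal library or Yap-activated replicate 3 (edgeR, adjusted p up to 0.0973). Of 6 mast cell markers 3 fell and 2 rose, at 75.2 to 94.0 CPM in Yap-activated and 102 to 121 CPM in Normal libraries. Other lists gave 4 of 4 surface mucous, 4 of 4 endothelial, 3 of 4 tested tuft and 2 of 5 fibroblast markers lower. Of 5 squamous markers of the forestomach 0 passed with edgeR, but Normal replicate 2 stood apart, with 703 reads of Krt13 against 20 and 1 in the other Normal libraries. Without it 4 of 5 rose, among them Krt13 at 6.38 and Krt14 at 6.78 on the log2 scale, and 3 rose with limma voom. Without that library the receptors' log2 fold changes were -6.53 for Hrh2, -4.19 for Cckbr, -4.31 for Chrm3, -3.56 for Sstr2 and -3.86 for Ptger3. The part of these cell types in the receptors' values was not tested.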

How the data were processed

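Per the file headers and values, the authors deposited 1 table of raw, whole-number read counts per gene symbol, with 1 column for each of the 6 libraries and no normalization. Alignment software STAR (2.4.2a), DESeq2, GRCm38 and mm10 are listed, per the submitters' processing notes. How reads were counted, with which strand setting and annotation, is not stated in these sources. Libraries were stranded and poly(A)-selected, per the labels' protocols. Totals ran from 25580734 to 48440033 counts.

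Counts were analysed with R 4.3.3 and edgeR 4.0.16: filterByExpr (minimum count 10), TMM and a quasi-likelihood F-test (robust) fitted to the 6 libraries, Yap-activated over Normal, with Benjamini-Hochberg adjustment over 14600 genes at 0.05. The SE is the fold change (log2) divided by the square root of F. The test was tested on simulated data. Gene coordinates and lengths came from GENCODE mouse release 21, which held 21523 of the 21526 symbols, and promoters from RefSeq on GRCm38.p6. Intervals on read counts are exact 95% Poisson intervals. Alternatives were other scalings, filters and tests (DESeq2 1.42.0 and voom in limma 3.58.1), a replicate block, thinning to the smallest total and leaving out each library.

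The members and gene lists were chosen with earlier results of these data known. Named genes are the 5 receptors, the ligand genes, in each list the 3 with the smallest p and the one with the highest CPM, and the 3 nearest genes of each receptor. Others are marked as picked after their values were seen, except those named only to spell out a count or a list. For 1 gene that the rule names, the result is not reported here. For 1 parietal marker in the list, Cblif, no value was used here.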

Additional observations from a re-analysis of the deposited data

How the results depend on the processing

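The 5 receptors kept their direction and passed the threshold in all 16 alternative analyses of each. Log2 fold changes ran from -6.99 to -5.99 for Hrh2, -4.52 to -3.82 for Cckbr, -4.39 to -3.74 for Chrm3, -4.06 to -3.03 for Sstr2 and -4.56 to -3.35 for Ptger3, with a largest adjusted p of 0.0113 (Sstr2, without Normal replicate 3, edgeR quasi-likelihood test). With library totals alone 7521 genes were higher and 2299 lower, against 4345 and 4337 with TMM. The ratio of receptor to pump (Yap-activated minus Normal, log2) was 4.25 for Hrh2, 7.13 for Cckbr, 5.99 for Chrm3 and 6.63 for Ptger3 with a pseudocount of 1 CPM, and 1.06, 3.65, 3.44 and 3.67 for the same genes and 3.74 for Sstr2 against the other parietal markers. The cause was not tested. Among other named genes, Ptgs1 ran from -0.097 (without Yap-activated replicate 3) to 0.755 (without Yap-activated replicate 2), and Col1a1, at -0.43, turned to 0.069 with library totals alone. Ptgs1 was called in none of its alternatives, while Col1a1 passed with the replicate block (-0.44) and without Yap-activated replicate 1 (-0.60).

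Counts of risers that moved by over 1.5 times with library totals alone were 9 G protein genes against 4, 10 calcium arm genes against 3, 5 effectors against 2 and 4 related receptors against 2, and 4 cyclic AMP arm genes fell against 10. Calcium arm risers were 5 with DESeq2. G protein risers were 2 without Normal replicate 1 or Normal replicate 3, and cyclic AMP risers 3 without Normal replicate 2. Risers among the other acid-control receptors were 1 against 2 in 8 of the alternatives. Among marker lists, falls of smooth muscle markers were 1 against 3 with library totals alone and without Normal replicate 3, of tuft markers 1 against 3 with library totals alone, and of neuron and glia markers 0 or 1 against 3 in 9 alternatives. Squamous risers were 1 to 4 against 0 in 7 alternatives, immune risers 5 against 3 without Yap-activated replicate 2, and D and G cell risers 1 against 2 in 3 alternatives.

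Libraries of the same replicate number had correlations of their deviations from the group mean of 0.0467, 0.0111 and 0.0711 over 14600 genes. Libraries of different number had correlations from -0.113 to 0.0615. All of these were small, though the highest, 0.0711, was of the same number. Whether replicate numbers pair the libraries was not tested. With the replicate block Hrh2 was at -6.58 (adjusted p = 3.43e-04), and 4239 genes were higher and 4322 lower. For the ratio of receptor to pump, the replicate block left Hrh2 at 3.19 (2-sided exact sign-flip permutation p = 0.25, the smallest that 3 pairs can give). Depth limits the Yap-activated values, where 9 to 134 reads stand behind each receptor and library.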
